A study of Saccharomyces cerevisiae with 96 samples.

Results

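The transcriptome of Saccharomyces cerevisiae lacking NPY1, DXO1 and RAI1 (dxo1Δ rai1Δ npy1Δ, the triple mutant) was compared with that of the same background with NPY1 present (dxo1Δ rai1Δ, the double mutant). The comparison takes all 3 triple-mutant and all 3 double-mutant transcriptome libraries, 6 of the 96 libraries of the series and 6 of the 18 transcriptome libraries of one sequencing run. Both strains derive from BY4742 (MATα his3Δ1 leu2Δ0 lys2Δ0 ura3Δ0), carry dxo1::natNT2 and rai1::hphNT1 and were harvested in log phase from YPD at 30 °C, and the triple mutant in addition carries npy1::kanMX4. The mutants were obtained by mating and random spore isolation, so the strains can differ at sites other than the deletions. The replicates are biological triplicates of each strain. The question is what loss of NPY1 does to RNA levels when the other NAD decapping enzymes are already missing.

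Npy1 is a Nudix hydrolase that cleaves the pyrophosphate of NAD and NADH, and that can also remove an NAD cap from the 5′-end of an RNA. Dxo1 and Rai1 belong to a different enzyme family, which removes the NAD cap as a whole, and Rai1 also partners the nuclear 5′ to 3′ exonuclease Rat1.

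Reads were counted for mRNAs in a 5′ region, from -120 to +65 around the translation start, and separately over the coding sequence, while other RNAs were counted over their length. The 5′-region table held 6430767, 5911571 and 7311236 reads in the triple mutant and 6192094, 9863439 and 6886266 in the double mutant. Over coding sequences the range was 23241152 to 29627411 reads in the triple mutant and 28603126 to 43152924 in the double mutant. The α-cell genes STE3, encoding the a-factor receptor, and SAG1, encoding α-agglutinin, averaged 702.6 and 1164 scaled reads over the 6 libraries. The a-cell genes MFA1 and STE2 averaged 12.7 and 25.8, and none of these genes was called changed.

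NPY1 (chromosome VII, 376101 to 377255 in assembly R64, plus strand) had 7, 9 and 6 reads in its 5′ region in the triple mutant, against 128, 195 and 187 in the double mutant. Its log2 fold change was -4.38 (SE 0.24, edgeR adjusted p = 4.6e-14), the largest of any RNA called. Over the coding sequence it had 10, 14 and 8 reads in the triple mutant against 1808, 2635 and 1799 in the double mutant. DXO1 had 0, 0 and 0 reads in the triple mutant and 0, 1 and 0 in the double mutant, and RAI1 had 0, 0 and 1 against 0, 0 and 0. The 5′ regions thus follow the labels for the 3 deletions. The neighbors of NPY1 were not called: MNP1, a mitochondrial ribosomal protein gene, had a log2 fold change of -0.10, and SGF73, encoding a subunit of the SAGA deubiquitination module, one of -0.04. Over the coding sequence MNP1 and SGF73 were lower, by log2 -0.28 and -0.37, and were not called there (edgeR adjusted p = 0.094 for each).

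The libraries of the double mutant stood apart from one another. Over 3861 RNAs with a mean above 50 scaled reads, the root mean square log2 difference between libraries was 0.24 to 0.26 within the triple mutant, but 0.25 to 0.36 within the double mutant. Double-mutant replicate 3 lay 0.24 to 0.28 from the triple-mutant libraries and 0.36 from double-mutant replicate 1, and replicate 1 lay 0.44 to 0.45 from the triple mutant. The position of reads along mRNAs moved with this order. Per 100 reads in mRNA coding sequences, 8.39, 8.32 and 8.26 reads fell in mRNA 5′ regions in the triple mutant, against 5.96, 6.71 and 7.63 in the double mutant. The groups did not overlap (difference 1.56, two-sided exact permutation test, p = 0.1, the smallest that 3 against 3 libraries can give). Reads of tRNAs made up 0.0768, 0.0767 and 0.0746% of the table in the triple mutant and 0.0470, 0.0568 and 0.0646% in the double mutant, again without overlap (exact permutation p = 0.1). The difference in 5′ reads per 100 was smaller in the other pairs, dxo1Δ npy1Δ against dxo1Δ (5.74 ± 0.42 against 5.50 ± 0.14, SD, n = 3 each, exact permutation p = 0.5) and rai1Δ npy1Δ against rai1Δ (7.69 ± 0.87 against 8.42 ± 0.32, SD, exact permutation p = 0.2). The part of read position in the results below was not tested.

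**Figure D1:**
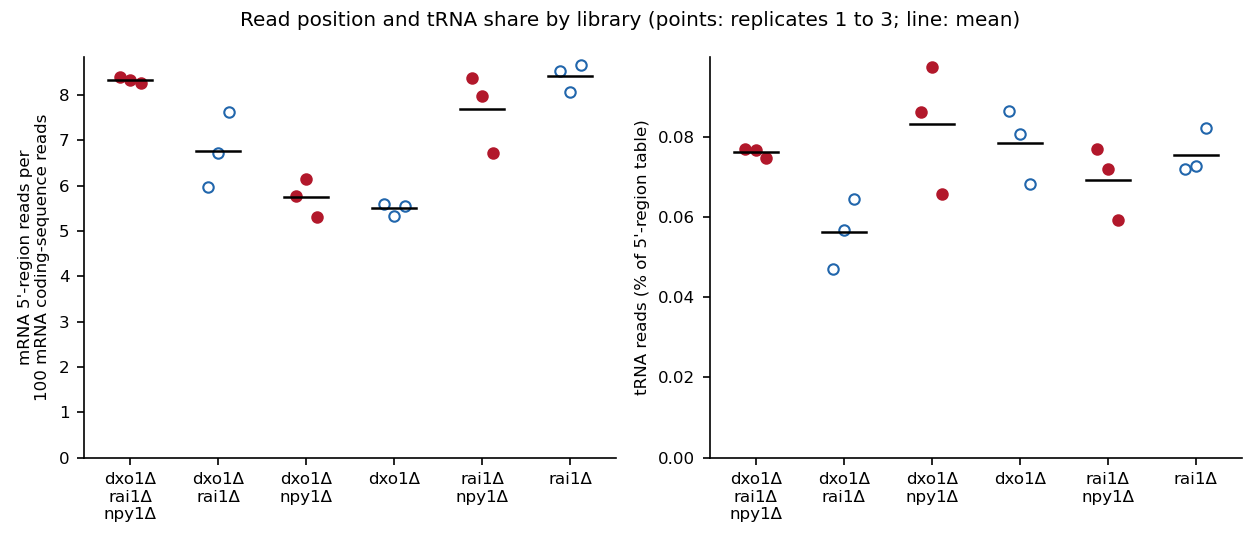
Reads in mRNA 5′ regions per 100 reads in mRNA coding sequences (left) and tRNA reads as a percentage of the 5′-region table (right), by strain. Points are replicates 1 to 3 from left to right and lines are means. The triple mutant lies at 8.26 to 8.39 and the double mutant at 5.96 to 7.63 in the left panel.

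Of 6962 RNAs tested, 66 (0.948%) changed at an adjusted p below 0.05 in the edgeR quasi-likelihood test. Of these, 38 were higher (0.546%) and 28 were lower (0.402%) in the triple mutant. They comprised 58 mRNAs, of which 32 were higher and 26 lower, together with 3 snoRNAs, 4 tRNAs, all higher, and 1 telomeric feature. The changes were small: the median size was 0.60 on the log2 scale for RNAs that were higher and 0.65 for RNAs that were lower, and 5 and 4 of them exceeded 2-fold. After TMM scaling the groups did not overlap for 64 of the 66, a condition that 21.1% of all RNAs tested met. Leaving out double-mutant replicate 3 raised the count to 371, and leaving out double-mutant replicate 1 lowered it to 3. Without double-mutant replicate 2 it was 6, and without triple-mutant replicates 1, 2 or 3 it was 6, 4 or 94. A fit that took its spread from all 18 libraries of the run called 2 RNAs, NPY1 and YLR154W-E, and scaling by total counts called 67, of which 58 were higher and 9 lower.

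**Figure D2:**
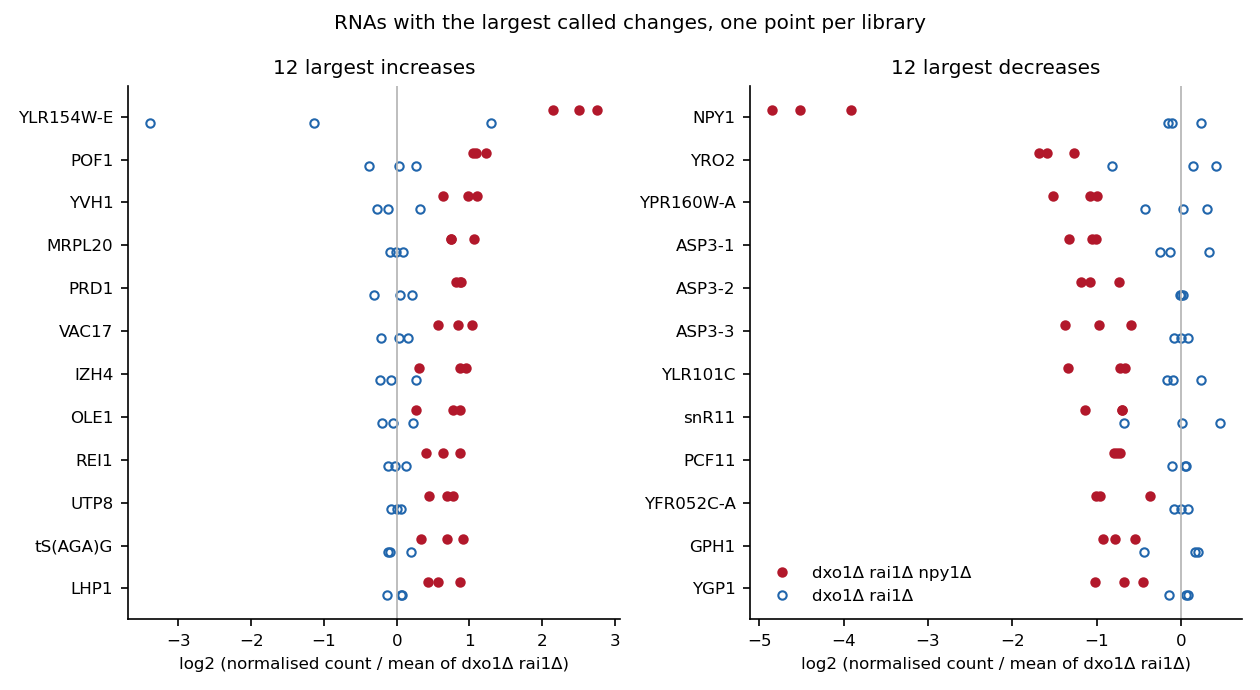
The 12 largest called increases and the 12 largest called decreases among RNAs with a mean of at least 20 scaled reads and no overlap between groups. Each point is 1 library, given as the log2 ratio of its normalized count to the double-mutant mean (filled, dxo1Δ rai1Δ npy1Δ; open, dxo1Δ rai1Δ). The double-mutant points of YLR154W-E and YRO2 spread far more than those of ASP3-2 or PCF11.

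Ribosome biogenesis was the list with the most called increases. Of 89 listed ribosome biogenesis RNAs tested, 8 rose and none fell: NOP56, ARX1, UTP10, CIC1, UTP8, EMG1, NSR1 and KRR1. Over all RNAs tested, 0.546% were called higher and 0.402% lower, and these shares apply to the lists below as well. The median log2 fold change of the list was 0.24, with 81 of 89 above 0, while the median of all RNAs tested was -0.0034. NOP56, a core protein of box C/D snoRNPs, had 903.7, 823.5 and 713.7 scaled reads in the triple mutant, against 473.7, 526.9 and 633.7 in the double mutant. It was 1.49-fold higher (log2 0.58, SE 0.12, edgeR adjusted p = 0.026), and the double-mutant library nearest to the triple mutant was replicate 3. Over the coding sequence NOP56 changed by log2 0.20, and none of the 89 RNAs of the list was called there.

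ARX1, an export factor of the large subunit precursor, had 236, 193 and 177 scaled reads in the triple mutant, against 112, 151 and 125 in the double mutant (log2 0.63, edgeR adjusted p = 0.033). UTP8 and UTP10, which belong to the early processome on the pre-rRNA, changed by log2 0.64 and 0.57. CIC1, needed for large subunit precursors, changed by 0.61, the processome protein gene KRR1 by 0.57, NSR1, the yeast nucleolin, by 0.50 and the 18S rRNA methyltransferase gene EMG1 by 0.50. In these genes every triple-mutant library exceeded every double-mutant library, as in 37 of the 38 RNAs called higher, so it adds little to the calls. The groups did not overlap for 32 of the 89 listed RNAs and for 21.1% of all RNAs tested. Triple-mutant replicate 3 was the lowest of its group for 7 of the 8 genes.

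Other called increases stood outside that list, and those named here were gathered from the calls and are not counted as a group. YVH1, a phosphatase that acts on the large subunit precursor in the cytoplasm, had 109, 99.2 and 77.9 scaled reads in the triple mutant and 41.6, 63.1 and 46.3 in the double mutant (log2 0.88, edgeR adjusted p = 0.026). REI1, another cytoplasmic maturation factor of the large subunit, changed by 0.65, RRP7 by 0.53 and SLX9 by 0.60. LHP1, the yeast La protein that binds new RNA polymerase III transcripts, changed by 0.63. HMT1, the main arginine methyltransferase of RNA-binding proteins, changed by 0.58. Over the coding sequence YVH1, REI1, RRP7, SLX9, LHP1 and HMT1 changed by 0.26, 0.25, 0.19, 0.24, 0.21 and 0.32, and none was called there. RRP7, SLX9 and HMT1 were chosen after their values were seen. The translation initiation helicase DED1 changed by 0.52, the 1 called of 38 listed translation factors, whose median was 0.20. Of all RNAs tested, 0.546% were called higher.

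Ribosomal protein lists held few calls, although their 5′ medians were near that of the biogenesis list. Of 56 RNAs for the small subunit, 1 was called, RPS0B, with 926, 895 and 990 scaled reads in the triple mutant against 516, 677 and 724 in the double mutant (log2 0.55, edgeR adjusted p = 0.026). None of 76 RNAs for the large subunit was called. The list medians were 0.20 and 0.25 in the 5′ region, with 47 of 56 and 71 of 76 above 0, but 0.04 and 0.04 over the coding sequence. For the biogenesis list the coding-sequence median was 0.19. RPS0B itself had a coding-sequence log2 fold change of 0.0097. Of 21 RNA polymerase I genes none was called, with medians of 0.22 in the 5′ region and 0.14 over the coding sequence, and the smallest adjusted p was that of RPA12 (log2 0.50, edgeR adjusted p = 0.052).

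The lists of stress and storage genes had medians below 0. In log phase these genes are normally held low by protein kinase A and rise when the transcription factors Msn2 and Msn4 enter the nucleus. Of 30 general stress response RNAs tested, none rose and 2 fell, YGP1 and DDR2, with a list median of -0.27 and 23 of 30 below 0. YGP1, a secreted cell wall glycoprotein, had 201, 158 and 235 scaled reads in the triple mutant and 340, 334 and 291 in the double mutant (log2 -0.69, SE 0.13, edgeR adjusted p = 0.016). DDR2, a small stress protein, had 112, 85.9 and 133 against 160, 177 and 170 (log2 -0.61). Of 20 RNAs for glycogen and trehalose metabolism, 1 fell, the glycogen phosphorylase gene GPH1, and the list median was -0.30, with 18 of 20 below 0. Over all RNAs tested, 0.402% were called lower. With scaling by total counts the calls of DDR2 and GPH1 were lost (log2 -0.52 and -0.66, edgeR adjusted p = 0.090 and 0.084), and that of YGP1 was not.

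GPH1 had 45.1, 41.1 and 53.2 scaled reads in the triple mutant against 89.0, 87.2 and 57.6 in the double mutant (log2 -0.74, edgeR adjusted p = 0.049). Over its coding sequence it had 682, 607 and 799 against 1414, 1406 and 996, and was called there as well (log2 -0.87, adjusted p = 0.040). YGP1 was the other gene of these lists called in both tables. The list medians over the coding sequence were -0.20 for general stress and -0.26 for glycogen and trehalose. In both GPH1 and YGP1, double-mutant replicate 3 was the library of its group nearest to the triple mutant.

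YRO2, a plasma membrane protein of the Hsp30 family, showed the largest decrease after NPY1. It had 112, 104 and 139 scaled reads in the triple mutant against 448, 370 and 190 in the double mutant (log2 -1.50, SE 0.19, edgeR adjusted p = 4.8e-05). Its coding-sequence change was -0.98 and was not called (adjusted p = 0.083). Of 18 chaperone genes, SSA1, a cytosolic Hsp70, and AHA1, an activator of Hsp90, fell by 0.51 and 0.53 on the log2 scale, and the list median was -0.08. HXK1, a hexokinase, fell by 0.57, and the hexose transporter genes HXT6 and HXT2 were called in opposite directions, at -0.49 and 0.50. HXT6 differs from its neighbor HXT7 at 3 of 1713 bases, so its reads are uncertain. With scaling by total counts the calls of SSA1, AHA1, HXK1 and HXT6 were lost (edgeR adjusted p = 0.090, 0.096, 0.081 and 0.092).

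**Figure D3:**
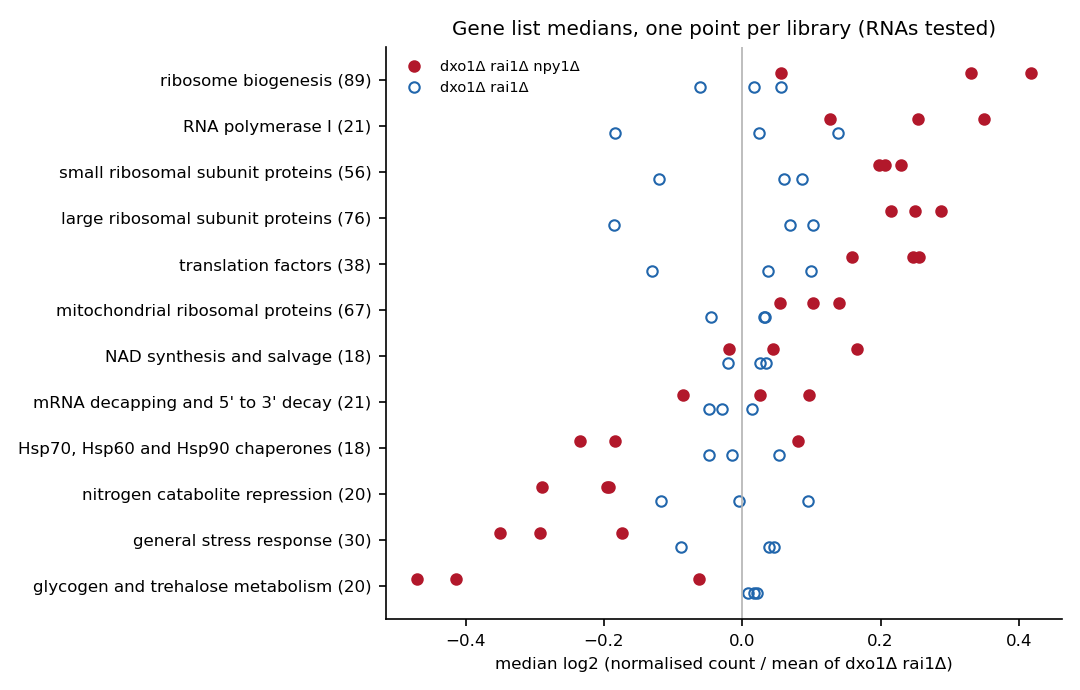
Median log2 ratio to the double-mutant mean over the members of 12 gene lists, 1 point per library (filled, dxo1Δ rai1Δ npy1Δ; open, dxo1Δ rai1Δ). Numbers in parentheses are RNAs tested. Triple-mutant replicate 3 lies at 0.06 for ribosome biogenesis and at -0.06 for glycogen and trehalose, close to the double mutant.

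The per-library medians showed which lists separated the groups. For ribosome biogenesis they were 0.42, 0.33 and 0.06 in the triple mutant, against -0.06, 0.02 and 0.06 in the double mutant, so that replicate 3 of each strain met. For glycogen and trehalose they were -0.47, -0.41 and -0.06 against 0.02, 0.02 and 0.01. For general stress they were -0.35, -0.29 and -0.17 against 0.05, 0.04 and -0.09, and for the large ribosomal subunit 0.22, 0.25 and 0.29 against -0.19, 0.07 and 0.10. Ribosomal protein medians thus were even within the triple mutant, whereas biogenesis and storage medians were not.

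Short sequences known as binding sites of transcription factors were counted in the 500 bases upstream of each translation start in R64, on both strands. The stress response element AGGGG, the site of Msn2 and Msn4, was present in 11 of 21 promoters of called lower mRNAs (52.4%) and in 7 of 29 promoters of called higher mRNAs (24.1%), against 34.1% of all 6006 promoters. The PAC element GATGAG was present in 16 of 29 promoters of higher mRNAs (55.2%) and in 6 of 21 of lower ones (28.6%), against 28.2% of all. The RRPE element AAAATTTT was found in 41.4% of the promoters of higher mRNAs and 4.76% of those of lower mRNAs, against 12.4% of all. Both PAC and RRPE are known from ribosome biogenesis genes, and 93.3% and 84.3% of that list held them here. The promoters of higher mRNAs include those of the called members of that list, so their PAC and RRPE shares are not separate from those calls. The heat shock element TTCNNGAA, a stress site as well, was present in 41.4% of the promoters of higher mRNAs and 28.6% of those of lower mRNAs, against 21.2% of all. The Pho4 site CACGTG was present in 3.45% of the higher, 23.8% of the lower and 6.23% of all promoters. The CCAAT site of the Hap complex was found in 48.3% of the higher and 38.1% of the lower, against 62.4% of all. For the Gcn4 site TGACTC the shares were 6.90%, 4.76% and 12.7%, for the Aft1 site GCACCC 6.90%, 0% and 7.63%, and for the TGTGGC site of Met31 and Met32 3.45%, 14.3% and 14.2%, each in the order higher, lower and all. These shares were not tested. Each copy of a repeated gene was counted, ASP3-1, ASP3-2 and ASP3-3 among the lower and CUP1-1 and CUP1-2 among the higher. PAC, RRPE and stress response sites are shown for genes of both groups, on the strand of the gene, with the element or its reverse complement in capitals.
NOP56 PAC, chrXII:545962-545983: ttttgagtGATGAGatgggaaa
NOP56 RRPE, chrXII:545917-545940: gcgatgtgAAAATTTTcttttttt
UTP10 PAC, chrX:217396-217417: cagttagcGATGAGctagatat
UTP10 RRPE, chrX:217410-217433: caaagaaaAAAATTTTcagttagc
NSR1 PAC, chrVII:807830-807851: aagggcagCTCATCgcaagaac
CIC1 PAC, chrVIII:210717-210738: cactggagCTCATCgcaaattt
GPH1 stress response element, chrXVI:860941-860961: aataagtaAGGGGtggataat
DDR2 stress response element, chrXV:231946-231966: cttcttttCCCCTgtttccat
YGP1 stress response element, chrXIV:336103-336123: ctcgaagaAGGGGccgaaaat
PNC1 stress response element, chrVII:428244-428264: aaaaaaaaAGGGGcaggcccc
The elements are matches of letters only, and binding was not measured.

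Genes of NAD metabolism were little changed. Of 18 NAD synthesis and salvage RNAs, 1 was called, PNC1, the nicotinamidase of the salvage pathway, and the list median was 0.04. Of all RNAs tested, 0.948% were called in either direction. PNC1 had 225, 206 and 299 scaled reads in the triple mutant against 351, 336 and 360.0 in the double mutant (log2 -0.51, SE 0.13, edgeR adjusted p = 0.049), and triple-mutant replicate 3 lay nearest to the double mutant. With scaling by total counts this call was lost (log2 -0.43, edgeR adjusted p = 0.106). POF1, a nicotinamide mononucleotide adenylyltransferase outside that list, had 31.8, 32.7 and 36.1 scaled reads in the triple mutant and 11.9, 15.8 and 18.5 in the double mutant (log2 1.10, SE 0.26, edgeR adjusted p = 0.033). The coding sequence of POF1 did not follow, with a log2 fold change of 0.0085. NPY1 itself was the only one called of 7 Nudix hydrolases and of 21 genes of mRNA decapping and 5′ to 3′ decay. None of 21 exosome and cofactor genes was called.

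Among the remaining decreases, PCF11, a subunit of the cleavage factor that forms mRNA 3′-ends, had 58.4, 55.6 and 57.0 scaled reads in the triple mutant, against 99.7, 100.0 and 89.5 in the double mutant (log2 -0.76, edgeR adjusted p = 0.026). Each group was tight, yet over the coding sequence the log2 fold change was -0.02. The asparaginase genes ASP3-1, ASP3-2 and ASP3-3 fell by 1.09, 0.98 and 0.92 on the log2 scale, and the call of ASP3-3 was lost with scaling by total counts (edgeR adjusted p = 0.059). Their coding sequences of 1089 bases, and that of ASP3-4, are identical in R64, so the copies cannot be told apart, and all 4 were called lower over the coding sequence, at -0.43 to -0.47. The H/ACA snoRNA snR11 had 16422, 16376 and 12143 scaled reads in the triple mutant, against 36567, 26900.1 and 16609 in the double mutant (log2 -0.83). It was not called by DESeq2 (adjusted p = 0.101). YPR160W-A and YFR052C-A, whose names place them beside GPH1 and HXK1, changed by -1.16 and -0.75, and they were not matched to the RefSeq annotation.

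Among the remaining increases, OLE1, the fatty acid desaturase, had 3488, 3738 and 2438 scaled reads in the triple mutant and 1765, 1965 and 2378 in the double mutant (log2 0.66, edgeR adjusted p = 0.031). Replicate 3 of each strain differed little. IZH4, a membrane protein linked to zinc homeostasis, changed by 0.73 and was similar over the coding sequence, at 0.73. The metallothionein genes CUP1-1 and CUP1-2, which bind copper, had coding sequences with no differing base and rose in both tables, by 0.53 and 0.45 in the 5′ region and by 0.51 and 0.47 over the coding sequence. MRPL20, a mitochondrial ribosomal protein gene, changed by 0.85, the vacuole inheritance gene VAC17 by 0.80, and PRD1, an oligopeptidase, by 0.83. Coding-sequence changes of these 3 were 0.11, 0.08 and -0.11. TOP3, a DNA topoisomerase with 11, 8 and 12 reads in the triple mutant and 4, 0 and 0 in the double mutant, had a coding-sequence change of -0.11, and its large 5′ fold change of 2.97 rests on these few reads.

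YLR154W-E had the largest increase among RNAs with at least 20 scaled reads. Its name places it in the region of the rDNA and the ASP3 cluster on chromosome XII. It was not matched to the RefSeq annotation, so whether it lies inside the rDNA repeat was not determined here. It had 139, 213 and 179 scaled reads in the triple mutant, against 14.2, 3.01 and 77.2 in the double mutant (log2 2.57, SE 0.37, edgeR adjusted p = 2.0e-04). The groups did not overlap, but the double-mutant libraries spread from 3.01 to 77.2. In rai1Δ npy1Δ it had 46.8, 70.0 and 103 scaled reads, against 186, 187 and 160.4 in rai1Δ, which is a change the other way (log2 -1.30, edgeR adjusted p = 0.0052). In dxo1Δ npy1Δ it had 70.8, 26.6 and 22.4, against 2.19, 11.2 and 38.1 in dxo1Δ, and was not called.

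YGL069C was chosen after its values were seen. Its name places it between MNP1 and RPB9, close to NPY1, and it was not matched to the RefSeq annotation. It had 26, 27 and 14 reads in the triple mutant against 5, 10 and 11 in the double mutant (log2 1.50, edgeR adjusted p = 0.041). It was called over the coding sequence as well, with 53, 39 and 38 reads against 18, 26 and 15. In dxo1Δ npy1Δ it had 54, 38 and 45 reads against 14, 17 and 13 in dxo1Δ (log2 1.60, edgeR adjusted p = 0.0022). In rai1Δ npy1Δ it had 21, 36 and 23 reads against 12, 12 and 13 in rai1Δ (log2 1.18, not called). With NPY1 it was the only RNA called in dxo1Δ npy1Δ against dxo1Δ.

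The coding-sequence table served as a check of the 5′-region calls. It is not independent of them, since the libraries are the same and the 5′ region includes the start of the coding sequence. Of 7134 RNAs tested there, 13 (0.182%) were called, 6 higher (0.0841%) and 7 lower (0.0981%): NPY1, CUP1-1, CUP1-2, ASP3-1 to ASP3-4, snR13, snR55, snR128, YGP1, YGL069C and GPH1. Without triple-mutant replicates 1, 2 or 3 this count was 1, 1 or 409, and without double-mutant replicates 1, 2 or 3 it was 6, 1 or 68. Of the 66 RNAs called in the 5′ region, 65 were measured there, 62 had the same sign and 10 were called in both. The median log2 fold change of the 38 RNAs that were higher was 0.26 there, and 29 of them had a smaller change than in the 5′ region. Across 3593 mRNAs with more than 50 scaled reads the 2 sets of fold changes correlated at r = 0.588, a description across genes that share libraries. For noncoding RNAs the tables are no separate check, since 961 of 1022 rows hold the same counts in all 6 libraries. The called snoRNAs, tRNAs and telomeric feature are among the 65, so the agreement given above includes them.

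**Figure D4:**
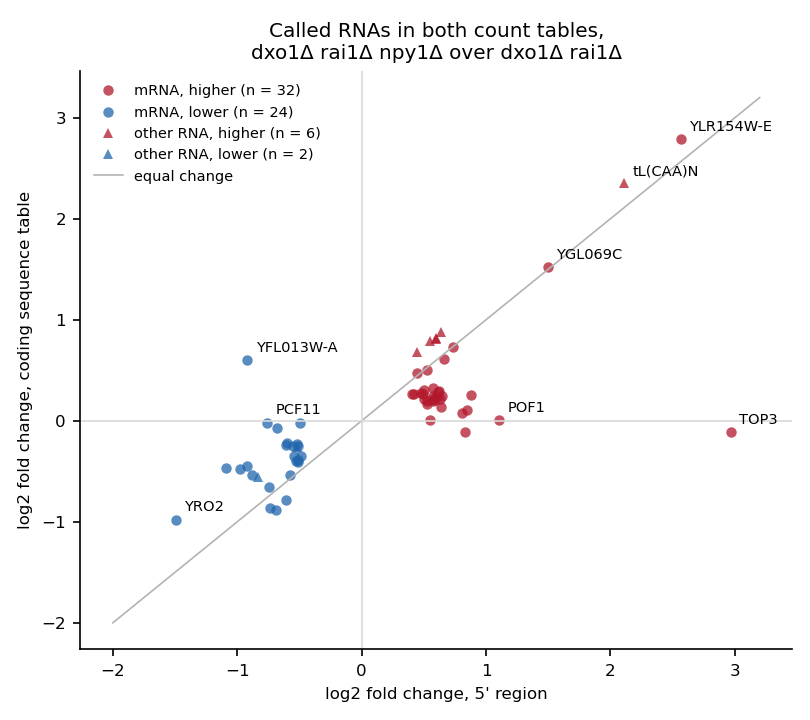
Log2 fold change of 64 called RNAs in the coding sequence table (vertical) against the 5′ region (horizontal), triple over double mutant. NPY1 lies beyond the axes and is left out, and circles are mRNAs and triangles other RNAs. TOP3, POF1 and PCF11 lie near 0 on the vertical axis, and YGL069C lies on the line of equal change.

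The classes of RNA moved with the scaling. Reads of mRNA 5′ regions made up 27.2 ± 0.55% of the 5′-region table in the triple mutant and 24.5 ± 1.4% in the double mutant (SD, n = 3 each, two-sided exact permutation p = 0.1, the smallest possible). Coding-sequence reads made up 81.8 ± 0.42% of the other table in the triple mutant and 82.8 ± 0.65% in the double mutant, a difference of the opposite sign. The median of the snoRNAs was -0.06 in the 5′-region table and 0.18 in the coding-sequence table, while that of the tRNAs was 0.28 and 0.51. Long terminal repeats likewise had medians of -0.14 and 0.10. SCR1, the RNA of the signal recognition particle, took 32.6 ± 0.82% of the reads in the triple mutant and 33.7 ± 1.2% in the double mutant (exact permutation p = 0.3).

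Fold changes also varied with coding length. Among mRNAs with more than 50 scaled reads, the median log2 fold change in the 5′ region was 0.09 for 482 genes of up to 500 bases and -0.12 for 303 genes over 3000 bases. Over the coding sequence the medians of these length classes were 0.04 and -0.06. The corresponding 5′ medians were -0.01 and 0.03 in the dxo1Δ background and -0.04 and 0.0046 in the rai1Δ background. The part of length in the ribosomal protein medians was not tested.

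Deletion of NPY1 called far fewer RNAs in the single mutants. In dxo1Δ npy1Δ against dxo1Δ, 2 of 6917 RNAs (0.0289%) were called, NPY1 and YGL069C. In rai1Δ npy1Δ against rai1Δ, 4 of 6964 (0.0574%) were called: tL(CAA)N and YIR043C were higher, and NPY1 and YLR154W-E were lower. The tRNA tL(CAA)N was also called higher in the triple mutant (log2 2.11, edgeR adjusted p = 0.033). It had few reads there, 41, 23 and 7 against 5, 10 and 3, and the groups overlapped. In the dxo1Δ background its change was -0.95 and was not called. The dxo1Δ count was 6 without dxo1Δ npy1Δ replicate 3, 1 without dxo1Δ replicate 1 or 2 and 7 without dxo1Δ replicate 3. The rai1Δ count was 2 without rai1Δ npy1Δ replicate 2 or 3 or rai1Δ replicate 1 or 3, and 1 without rai1Δ replicate 2. With the replicate number as a block, the rai1Δ count was 23. Counts of calls are no test of a difference between backgrounds, so the 3 pairs of strains were fitted with a term for the difference. Against dxo1Δ, no RNA of 6961 differed by edgeR or DESeq2, with 539 (7.74%) at an unadjusted p below 0.05, although 2 differed without double-mutant replicate 3 and 1 without triple-mutant replicate 3. Against rai1Δ, 10 of 6973 (0.143%) differed, 5 upward and 5 downward (0.0717% each).

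Of these 10, the change was more positive in the dxo1Δ rai1Δ background for YLR154W-E, HHT1, YHB1, ARX1 and NOP56. It was more negative for YIR043C, PCF11, YFR052C-A, YNL171C and RGC1. NOP56, for example, had 628, 627 and 518 scaled reads in rai1Δ npy1Δ against 621, 715 and 731 in rai1Δ. HHT1, a histone H3 gene, had 6975, 6178 and 6782 in the triple against 4539, 4469 and 5336 in the double mutant, while it had 5353, 4943 and 4842 in rai1Δ npy1Δ against 6382, 5793 and 6866 in rai1Δ. Leaving out double-mutant replicate 3 gave 101 RNAs in this test, and leaving out double-mutant replicate 2, triple-mutant replicate 1 or 2 or rai1Δ npy1Δ replicate 3 gave 1. It was 5 without double-mutant replicate 1 or triple-mutant replicate 3, 36 and 3 without rai1Δ npy1Δ replicate 1 and 2, and 38 and 2 without rai1Δ replicate 1 and 3.

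**Figure D5:**
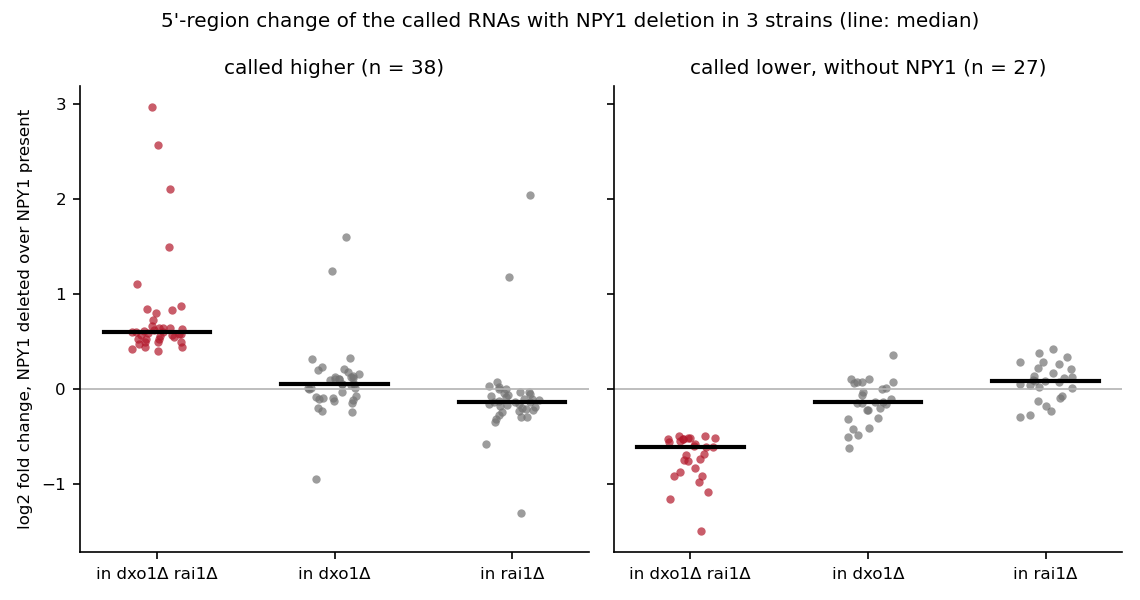
Log2 fold change with NPY1 deletion in the dxo1Δ rai1Δ, dxo1Δ and rai1Δ backgrounds for the 38 RNAs called higher and, without NPY1, the 27 called lower in the first. Points are RNAs and lines are medians. The medians of the higher RNAs are 0.60, 0.05 and -0.13, and those of the lower RNAs -0.61, -0.13 and 0.09.

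In the dxo1Δ background most of the called RNAs had the same sign of change, and in the rai1Δ background most had the opposite sign. Of the 38 higher RNAs, 25 were above 0 in the dxo1Δ background and 6 in the rai1Δ background, where 50.7% and 50.4% of all RNAs were. Of the 28 lower RNAs, 20 and 8 were below 0, as were 49.3% and 49.6% of all. The ribosome biogenesis list had medians of 0.05 and -0.10 in these backgrounds, and the glycogen and trehalose list -0.06 and 0.16. These 3 comparisons share no library.

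Capture of NAD-linked RNA was read for the same RNAs from libraries made with the tagging enzyme ADPRC and without it. In the triple mutant 38 of 60 measured RNAs (63.3%) were higher with ADPRC, against 53.1% of all 5700 RNAs and 58.8% of mRNAs. They comprised 28 of 36 higher and 10 of 24 lower RNAs. In the double mutant 39 of 55 (70.9%) were captured, against 68% of all 5310 RNAs and 74.9% of mRNAs, with 28 of 35 higher and 11 of 20 lower RNAs. NOP56 had 417, 986 and 927 reads with ADPRC and 3, 0 and 0 without it in the triple mutant, and 788, 460 and 666 with and 2, 0 and 0 without it in the double mutant. With the replicate number as a block, 12 of the changed RNAs were called captured in the triple mutant, against 38 without it. The share of all RNAs captured under the block was not taken.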

How the data were processed

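Transcriptome libraries of rRNA-depleted, sheared RNA were read for 75 bases. Per the labels and the study's methods, the authors mapped reads with bowtie (2 mismatches) to a BY4742 assembly, counted them by strand with htseq-count and deposited whole-number read counts per RNA, without normalization. The authors' tables of comparisons were not used.

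Counts were tested in R 4.3.3 with edgeR 4.0.16 (TMM scaling, quasi-likelihood F test, base mean above 1, Benjamini-Hochberg adjustment over all RNAs tested, threshold 0.05). "Scaled reads" are counts divided by TMM-scaled library size, relative to the average library. DESeq2 1.42.0, other scalings and filters, larger fits and leaving out each library were alternatives. The test was also run on counts simulated with the same spread for every RNA. It recovered 54, 56, 100 and 90% of 1.5, 2, 4 and 8-fold changes, with 7 false calls. The 1.5 and 4-fold changes were all increases and the 2 and 8-fold changes all decreases, so these rates are not a series by size alone. No simulated replicate stood apart, so this run cannot speak to the spread within the double mutant. Symbols and sequences came from RefSeq R64, to which 5914 of 6598 mRNA rows were matched by systematic name. No coordinates of the authors' assembly were used.

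Named RNAs were the 3 deleted genes and the neighbors of NPY1, the 12 largest called changes per direction (base mean at least 20, no overlap), the 5 smallest adjusted p per direction, called members of lists, strain markers and RNAs called in a difference between backgrounds. Other called RNAs were named after their values were seen. The comparison and all lists were chosen with earlier results of these data known. Lists were described by counts and medians.

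Samples sharing a number deviated together in every pair of dxo1Δ npy1Δ and dxo1Δ (correlations 0.17, 0.23 and 0.30), which was taken as pairing. The fit reported for that pair and the tests of a difference between backgrounds were nevertheless unpaired. With the block, 2 RNAs were called in dxo1Δ npy1Δ against dxo1Δ. In rai1Δ npy1Δ and rai1Δ the correlations were positive too (0.54, 0.24 and 0.09), and the fit reported for that pair was unpaired as well. The block raised the calls in rai1Δ npy1Δ against rai1Δ from 4 to 23. The triple and double mutant were not paired by this check. Intervals and tests cover the spread of these samples only.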

Additional observations from a re-analysis of the deposited data

Results flagged for a closer look

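The change with NPY1 deletion differed between the dxo1Δ rai1Δ and rai1Δ backgrounds by an edgeR interaction term for 10 RNAs, given as the log2 fold change in dxo1Δ rai1Δ minus that in rai1Δ. For YLR154W-E the difference was 3.87, for YHB1, the flavohemoglobin gene, 0.98, for ARX1 0.97, for HHT1 0.81 and for NOP56 0.80. For YIR043C it was -1.38, for PCF11 -1.13, for YFR052C-A -1.01, for YNL171C -0.97 and for RGC1 -0.89. YLR154W-E was called in both backgrounds, in opposite directions, and YIR043C was called in rai1Δ alone, while PCF11, YFR052C-A, ARX1 and NOP56 were called in dxo1Δ rai1Δ alone. HHT1, YHB1, YNL171C and RGC1 were called in neither background by itself. With total-count scaling the median of all RNAs in this test moved to 0.12.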

How the results depend on the processing

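In dxo1Δ rai1Δ, 66 RNAs were called in the 5′ region. The count was 115 with DESeq2 (64 higher and 51 lower, 40 shared with the 66), 111 without a filter, 13 in the coding-sequence table and 2 in fits of 18 or 24 libraries. It was 3 to 371 when single libraries were left out: 6, 4 and 94 without triple-mutant replicate 1, 2 and 3, and 3, 6 and 371 without double-mutant replicate 1, 2 and 3. RLE factors, total counts, mRNA rows alone and filterByExpr gave 60 to 74. Against coding sequence, PRD1 (-0.11), TOP3 (-0.11) and YFL013W-A (0.60) reversed, and the difference in mRNA share became -0.985 percentage points, against 2.75. In the coding-sequence table, 13 calls became 109 with DESeq2, 8 with total counts, 7 with filterByExpr and 1 to 409 without single libraries, with 409 without triple-mutant replicate 3 and 68 without double-mutant replicate 3. Without single libraries, calls were 1 to 7 in dxo1Δ, 1 to 5 in rai1Δ, 0 to 2 for the difference from dxo1Δ and 1 to 101 for the difference from rai1Δ. The last was 93 with DESeq2 and 67 with total counts (63 higher and 4 lower). The cause was not tested.

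The same replicate numbers did not pair the samples of the triple and double mutant (correlations 0.12, -0.03 and 0.07). With the replicate block the calls were 175 in the 5′ region (95 higher and 80 lower) and 9 over the coding sequence. They were 23 in rai1Δ and 14 for the difference from rai1Δ. Of the RNAs changed in the 5′ region, 12 were called captured in the triple mutant with the block, against 38 without it.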
